A study of Arabidopsis thaliana with 6 samples.

Results

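The genes described here are TIR-type NLR immune receptor genes of Arabidopsis thaliana, read in rosette leaves of pad4 and pad4 est1b mutants. They were taken from a list of 60 loci that encode receptors or receptor-like proteins with a TIR domain. A locus was kept where the array annotation gives a probe set to that gene alone, with no filter on signal. Of the 60 loci 48 were kept, out of 13513 probe sets with 1 gene on the array. Each of the 48 loci has 1 such probe set, so no choice between probe sets was needed. The 12 loci without one, among them AT5G44510 (TAO1) and AT4G11170 (RMG1), are not analysed here, and 6 of the 12 are on probe sets shared with another gene. Affymetrix ATH1 arrays were used, 3 for pad4 and 3 for pad4 est1b. Both groups carry the pad4-1 mutation in strain Col (Col-0 for the double mutant), so neither has normal PAD4, and no wild type or est1b single mutant is compared here. The double mutant carries the est1b-1 allele in addition. Neither mutated locus has a probe set that names it alone, so the genotypes were taken from the labels. Plants stood 2 weeks at high humidity and then 3 weeks at lower humidity, for both groups. Stage is labelled 5.10 weeks and tissue developed rosette leaves in 4 samples, namely all 3 of the double mutant and replicate 1 of pad4. The other 2 pad4 samples are labelled 3.90 weeks and leaves, although the same 2 and 3 weeks of growth are given for them. The labels do not settle whether the stage numbers mark a difference in age or in development.

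NLR proteins are intracellular immune receptors. Those of the TIR type carry an N-terminal Toll/interleukin-1 receptor domain, a nucleotide-binding domain and, in the full-length form, leucine-rich repeats. Activated TIR domains make small nucleotide signals that are sensed by complexes of EDS1 with PAD4 or SAG101, which act together with helper NLRs of the ADR1 and NRG1 families. Transcripts of some TIR-type receptors are known targets of nonsense-mediated mRNA decay. The comparison asks which of these receptor transcripts differ between pad4 and pad4 est1b when PAD4 is absent from both.

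Most of the receptor genes were dim on these arrays. A deposited signal is a brightness in linear units, scaled so that the trimmed mean of each array is 100.0. The mean over the 6 arrays was at least 20 units for 21 of the 48 members, and these 21 entered the test. The other 27 members (56.2%) stayed under that limit, against 43.7% of all probe sets without controls. At the limit itself, AT4G09420 lay just inside with a mean of 20.8 units and AT3G04220 just outside with 18.0. AT4G09420 and AT4G16920 passed only through the double mutant, and AT4G36140 only through pad4. The summed signal of an array was 3405664 units at the lowest and 3894818 at the highest, and array medians lay between 21.2 and 31.6. RNA integrity was read from actin and GAPDH control probe sets, whose log2 ratio of 3' over 5' signal was lowest on the first pad4 array (1.21) and highest on the third (2.00). Of 10 listed leaf photosynthesis genes 2 could be read, and RCA (4990.3 to 8105 units) and LHCB4.2 (6228 to 9805) were bright on all 6 arrays. The root hair gene EXPA7, the 1 readable gene of 4 root markers, lay between 0.98 and 18.4 units. The guard cell regulator FMA, 1 of 4 guard cell markers, lay between 29.2 and 100.6. Markers of phloem and xylem (0 of 4), flowers (0 of 3) and seeds (0 of 3) could not be read. A gene that could not be read has no probe set that the annotation used gives to it alone. Whether it has signal on these arrays is not known. In such leaf samples, fewer cells that express a gene and less of its RNA per cell cannot be told apart.

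No TIR-type receptor gene passed the test between pad4 est1b and pad4. Of the 21 members tested, 10 had a higher and 11 a lower value in the double mutant, and their median difference was -0.04 on the log2(signal + 10) scale, against 0.03 over the 12804 probe sets tested. Over all 48 members, the dim ones included, 28 were higher and 20 lower, with a median of 0.09 against 0.02 over all 22746 probe sets without controls. In limma 0 of the 21 members were called at an adjusted p of 0.05 (Benjamini-Hochberg over 12804 probe sets), where 0.0391% of all probe sets were called. At an unadjusted p of 0.05 limma gave 0 of the 21, where the share over all probe sets was 4.44%. Adjusted p was 1.00 for each of the 21 members by limma.

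**Figure D1:**
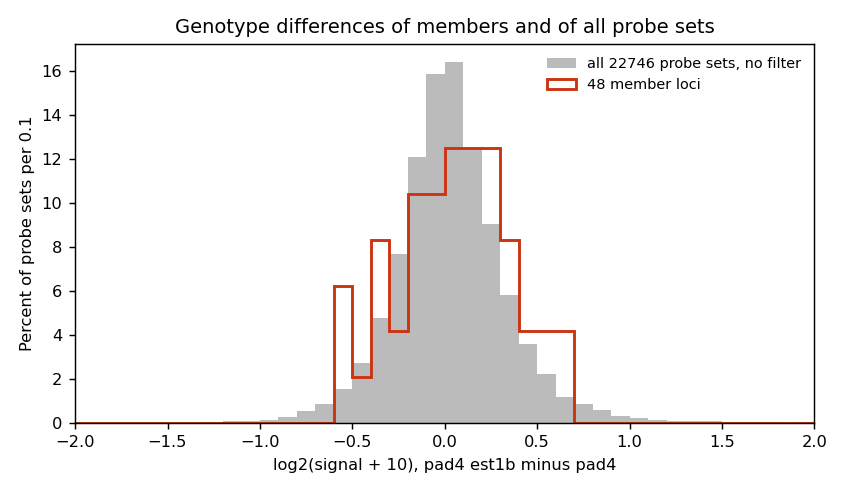
Distribution of the genotype difference on the log2(signal + 10) scale (x axis, pad4 est1b minus pad4, in bins of 0.1) as a percent of probe sets (y axis), for the 48 member loci (red line) and all 22746 probe sets without controls (grey). The members lie between -0.59 and 0.69. The axis ends at -2 and 2, beyond which lie 15 probe sets above 2, 0 of them members.

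These results leave room for changes of moderate size. The standard errors of the 21 members ran from 0.30 to 0.55 on the log2 scale, with a median of 0.39 against 0.32 over all probe sets tested. The 95% interval of the difference stayed within 2-fold in both directions for 5 members only, AT1G72890, AT1G72900, AT4G19510, AT4G36140 and AT5G11250. For the other 16 an increase or a decrease of 2-fold lies inside the interval. The lowest limit was -1.84 (AT3G44630) and the highest 1.55 (AT4G19530). Among the 4 arrays labelled 5.10, which hold 1 pad4 array, 9 of the 21 members had the opposite sign.

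**Figure D2:**
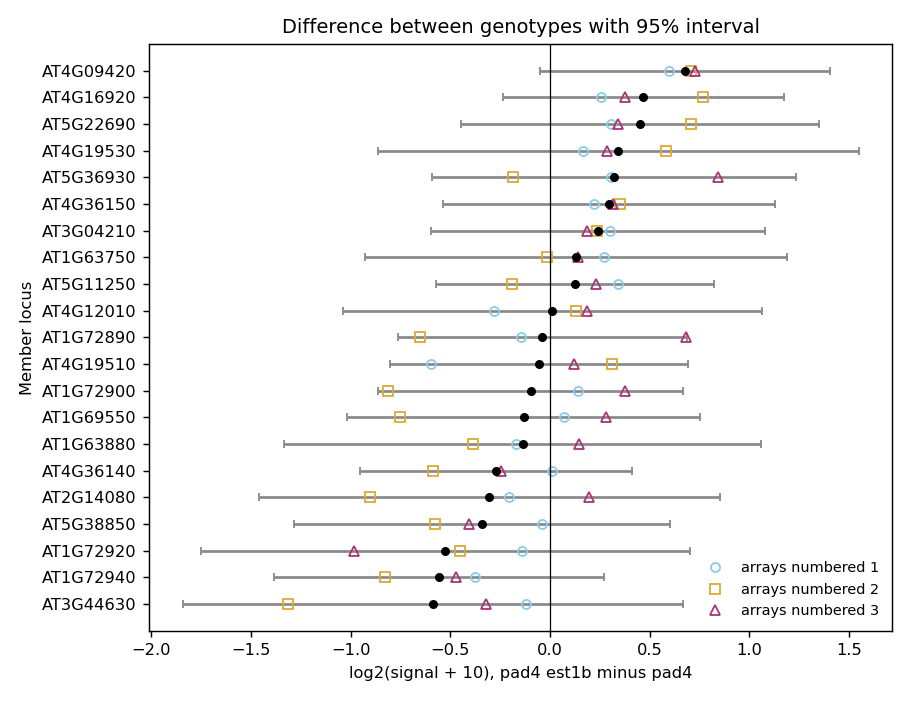
Difference between genotypes (x axis, pad4 est1b minus pad4, log2(signal + 10)) for the 21 members past the filter (y axis). Black points are the fitted differences over 3 and 3 arrays with their 95% intervals, and open symbols are the differences between the arrays that carry the same replicate number. The fit does not use the replicate numbers. All 21 of its intervals include 0, and AT4G09420 comes closest to excluding it, from -0.05 to 1.41.

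The member with the smallest p was AT4G09420, a TIR-NBS gene without leucine-rich repeats. Its signals were 7.43, 16.0 and 17.2 units on the pad4 arrays (replicates 1, 2 and 3) and 16.3, 32.6 and 35.1 on those of the double mutant. The lowest double mutant array lay below the highest pad4 array, so the groups overlapped. The log2 difference was 0.68 ± 0.32 (SE), with an unadjusted p of 0.064 by limma. Between arrays of the same number the difference was 0.60, 0.71 and 0.73. All 3 pad4 values lie under 20 units, so the size depends on the offset added before log2: it was 1.08 without an offset and 0.41 with 30%. Its neighbour AT4G09430 was near 0, from 0.45 to 0.78 units in pad4 and from 0.53 to 6.94 in the double mutant.

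Receptor genes of clusters known for resistance to downy mildew lay on both sides of 0. AT3G44630 belongs to the cluster of RPP1, a receptor of downy mildew effectors. It had 128, 98.0 and 38.0 units for pad4 against 117, 33.4 and 28.4 for pad4 est1b. Only the replicate 1 array was high in the double mutant, and the groups overlapped over most of their range. The log2 difference of -0.59 ± 0.55 (SE) was the lowest of the 21. Its relative AT3G44400, under the filter, had from 5.61 to 16.9 units in pad4 and from 10.3 to 21.3 in the double mutant. AT4G16920 lies in the cluster of RPP5 and SNC1, whose gain of function causes autoimmunity. Its signals were 15.3, 22.7 and 15.5 units on the pad4 arrays and 20.2, 45.7 and 23.2 on those of the double mutant, a log2 difference of 0.47 ± 0.31 (SE). The double mutant value at replicate 2 stood above the other 5 arrays, while its replicate 1 lay below the highest pad4 array. AT4G16900 of the same cluster was dim, from 0.54 to 11.9 units in pad4 and from 4.25 to 11.9 in the double mutant.

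The RPP2 cluster has 3 members here. AT4G19510 (RPP2B), which acts with RPP2A against downy mildew, had 38.3, 19.1 and 13.7 units for pad4 against 21.9, 26.2 and 15.8 for pad4 est1b. All 3 double mutant values lay inside the range of pad4, and the log2 difference was -0.05 ± 0.33 (SE). For AT4G19530 the signals were 289.8, 139 and 81.5 units on the pad4 arrays and 326, 213 and 101 on those of the double mutant. Each double mutant array lay above the pad4 array of its number, yet the spread within a genotype was much wider, and the log2 difference was 0.34 ± 0.53 (SE). Between them AT4G19520 lay under the filter, from 4.44 to 14.3 and from 5.80 to 10.8 units. Of the other clusters on the list, AT1G63880 is a relative of RLM1, a receptor gene for resistance to the blackleg fungus. It had 194, 117 and 49.1 units for pad4 against 172, 87.5 and 55.4 for pad4 est1b, a log2 difference of -0.14 ± 0.52 (SE). Both genotypes covered nearly the same range. AT1G63750 in the same region had 53.1, 40.1 and 15.3 units on the pad4 arrays and 66.0, 39.5 and 17.9 on those of the double mutant (0.13 ± 0.46 on the log2 scale, SE).

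**Figure D3:**
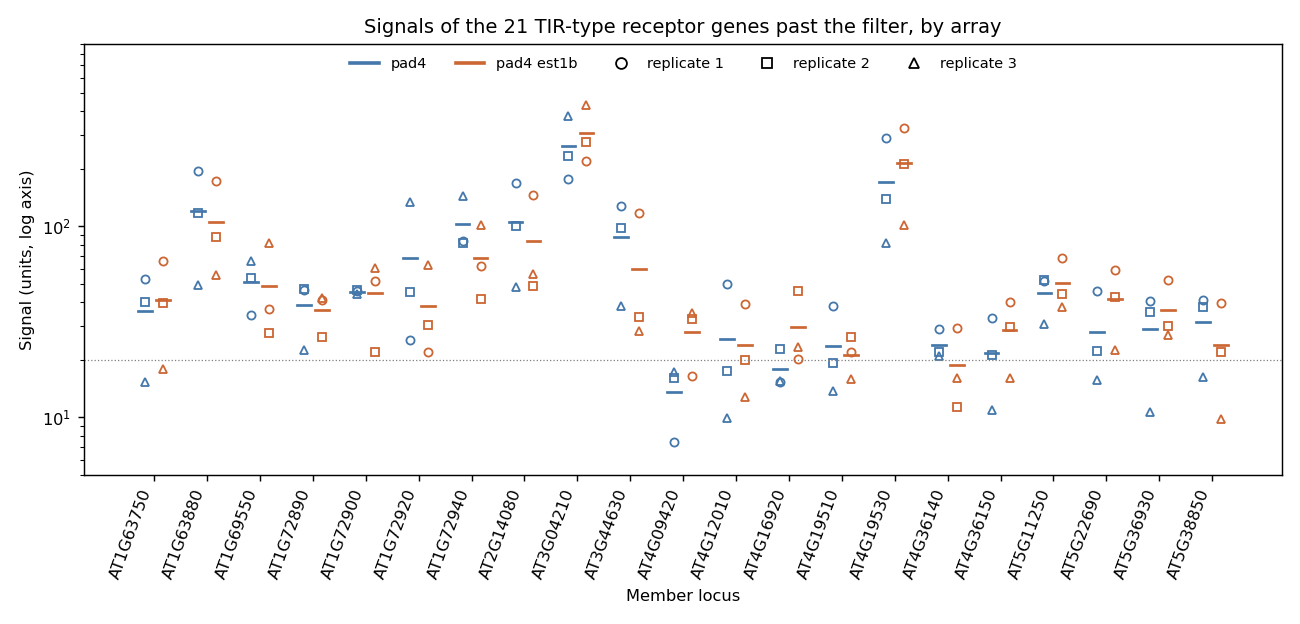
Signals (y axis, linear units on a log axis) of the 21 members past the filter (x axis) on each array, pad4 in blue and pad4 est1b in orange, with a symbol for each replicate number and a bar at the mean of 3 arrays. The dotted line marks 20 units. The 2 genotypes overlap in each of the 21 members, and a replicate 1 array is the brightest of the 6 in 13 members. The share over all probe sets was not taken. The replicate 1 arrays also have the highest median signals of the 6, 30.5 in pad4 and 31.6 in pad4 est1b.

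Besides AT4G09420, 5 tested members lack leucine-rich repeats: AT3G04210 and 4 genes that lie close together, AT1G72890, AT1G72900, AT1G72920 and AT1G72940. Such TIR-NBS and TIR-only proteins are known to trigger cell death or to assist full-length receptors. AT3G04210 (TN13) had 177, 232 and 376 units for pad4 against 219.9, 276 and 429 for pad4 est1b, a log2 difference of 0.24 ± 0.36 (SE). The double mutant was the brighter at each replicate number, by 0.30, 0.24 and 0.19, and the groups overlapped. For AT1G72940 the signals were 83.3, 81.4 and 144 units on the pad4 arrays and 61.9, 41.6 and 101 on those of the double mutant. The log2 difference was -0.56 ± 0.36 (SE), with the double mutant the dimmer at each number and 1 of its 3 arrays above 2 of the pad4 arrays. AT1G72920 had 25.2, 45.5 and 134 units for pad4 against 22.0, 30.6 and 62.8 for pad4 est1b (-0.52 ± 0.53, SE). Its pad4 mean rests on replicate 3, which lay far above the other 5 arrays. Without that array the log2 difference was 0.043.

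AT1G72900 and AT1G72890 of the same group were close to 0. AT1G72900 had 45.7, 46.1 and 44.0 units in pad4, the narrowest spread among the 21 in that genotype, and 51.5, 21.9 and 60.2 in the double mutant. Its log2 difference was -0.10 ± 0.33 (SE). AT1G72890 had 46.4, 47.2 and 22.4 units on the pad4 arrays and 41.0, 26.4 and 42.0 on those of the double mutant (-0.04 ± 0.32, SE). The 3 other members of this neighbourhood were dim. Of these AT1G72840 had 9.84, 4.20 and 1.56 units for pad4 against 23.6, 3.50 and 19.9 for pad4 est1b, the highest value of the 48 members at 0.69 on the log2 scale. It was high on 2 of the 3 double mutant arrays and not on the third.

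Among receptors known under their own names, AT4G12010 (DSC1) and AT5G18370 (DSC2) were identified through autoimmunity in mutants of the transcription factor CAMTA3. In DSC1 the signals were 49.7, 17.4 and 9.92 units on the pad4 arrays and 39.1, 20.01 and 12.7 on those of the double mutant, with a log2 difference of 0.01 ± 0.46 (SE). Among the arrays labelled 5.10 its value was -0.89, and the 1 pad4 array left there is its brightest. DSC2 lay under the filter at 13.8, 22.3 and 9.41 units for pad4 against 17.9, 9.88 and 12.2 for pad4 est1b. Its neighbour AT5G18360 (BAR1), reported to respond to a bacterial effector, had 15.4, 8.34 and 5.98 units on the pad4 arrays and 17.8, 26.4 and 12.6 on those of the double mutant. That is a log2 difference of 0.54, which was not tested in the main comparison because the mean was under 20 units, and 1 pad4 array lay above 1 double mutant array. AT5G11250 (BNT1), linked to stress hormone responses, had 51.9, 52.0 and 30.9 units for pad4 against 68.6, 44.4 and 38.0 for pad4 est1b (0.13 ± 0.30, SE). AT1G17600 (SOC3), which acts in chilling-sensitive autoimmunity, was dim in both, from 0.82 to 12.8 units in pad4 and from 2.98 to 11.8 in the double mutant.

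The remaining full-length receptor genes past the filter carry only a locus identifier in the reference table, though AT2G14080 is also known as RPP28. AT5G22690 had 45.9, 22.1 and 15.7 units on the pad4 arrays and 59.0, 42.5 and 22.5 on those of the double mutant, a log2 difference of 0.45 ± 0.39 (SE). In AT5G36930 the values were 40.5, 35.7 and 10.7 units for pad4 against 52.5, 30.1 and 27.1 for pad4 est1b (0.32 ± 0.40, SE). Replicate 3 was the lowest array of each genotype in both genes. AT2G14080 had 169, 99.9 and 47.8 units on the pad4 arrays and 145, 48.9 and 56.2 on those of the double mutant (-0.30 ± 0.50, SE). For AT5G38850 they were 41.1, 37.8 and 16.2 units for pad4 against 39.7, 22.0 and 9.75 for pad4 est1b (-0.34 ± 0.41, SE). In these 2 genes the highest pad4 and the highest double mutant value were close to each other. In AT1G69550 replicate 3 was instead the highest array of each genotype, with 34.4, 53.3 and 65.6 units on the pad4 arrays and 36.7, 27.6 and 82.0 on those of the double mutant (-0.13 ± 0.39, SE).

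Neighbouring receptor genes did not share a direction throughout. The 48 members form 12 groups of neighbours, each within 10 genes of the next in the reference gene order, with 32 members, and 16 members stand alone. All members of a group had the same sign in 6 of the 12 groups and both signs occurred in the other 6. Only 3 of the 12 groups hold 2 or more members past the filter, so in the rest the signs depend on dim probe sets. AT4G36140 and AT4G36150 lie side by side and both passed the filter. AT4G36140 had 28.8, 22.0 and 20.9 units for pad4 against 29.2, 11.3 and 16.1 for pad4 est1b, a log2 difference of -0.27 ± 0.30 (SE). AT4G36150 had 33.0, 21.2 and 10.9 units on the pad4 arrays and 40.0, 29.7 and 16.0 on those of the double mutant, a log2 difference of 0.30 ± 0.36 (SE). Neither difference exceeded its spread between arrays. The widest range within a group, 1.24 on the log2 scale, was that of the 7 genes from AT1G72840 to AT1G72940, and the narrowest, 0.11, that of AT3G04210 and AT3G04220.

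The 27 members under the filter had signals from 0.11 to 26.4 units, with a median of 6.16. Of these, 21 stayed under 20 units on all 6 arrays and 7 stayed under 10. In 2 of the 48 members the genotypes did not overlap, and both are dim. AT1G63730, a neighbour of AT1G63750, had 11.0, 13.8 and 9.18 units for pad4 against 14.4, 16.4 and 16.2 for pad4 est1b, while AT2G17060 had 5.78, 3.25 and 3.08 for pad4 against 0.41, 1.18 and 1.56 for pad4 est1b. That is 1 member higher and 1 lower, where 5.52% of all probe sets without controls were higher without overlap and 3.86% lower. Among the 21 members past the filter 0 were higher and 0 lower without overlap, where the shares were 6.41% and 3.4%. In a fit without a filter limma called 0 of the 48 members, and 0 had an unadjusted p under 0.05.

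For most members the arrays of 1 genotype lay further apart than the means of the genotypes. The median log2 difference of the 21 members from replicate 1 to replicate 3 came to -0.97 for pad4 and -0.71 for pad4 est1b, against -0.26 and -0.07 over all probe sets tested. After quantile normalization these medians were -0.60 and -0.44 for the members and -0.014 and 0.06 over all probe sets. In 17 of the 21 members the genotype difference was smaller than the replicate 3 to replicate 1 difference of either genotype. A difference between single arrays varies more than a difference between means, and the matching share over all probe sets was not taken. This count therefore does not set the members apart from other genes. Replicate 3 lay at least 2-fold below replicate 1 in both genotypes in 7 members, where 11.7% of all probe sets did, and at least 2-fold above it in 1 member, AT1G72920, where 3.23% did. The count of 7 was 4 by quantile normalization (7.63% of all probe sets), by median centring (6.54%) and with an offset of 30% (6.54%), and 9 without an offset (15.3%). The count of 1 was 2, 3, 0 and 2 in that order, where 4.79%, 7.61%, 1.99% and 4.51% of all probe sets were higher. In the main scaling the 7 are AT1G63750, AT1G63880, AT2G14080, AT3G44630, AT4G12010, AT4G19530 and AT5G22690. AT1G63880, for example, had a log2 difference of -1.79 in pad4 and -1.47 in the double mutant, and AT3G44630 of -1.52 and -1.72. The log2 ratio of 3' over 5' control signal was 1.21, 1.63 and 2.00 on the pad4 arrays (replicates 1, 2 and 3). On those of pad4 est1b it was 1.37, 1.82 and 1.75, and its part in these differences was not tested.

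The same array differences were also described by the domain make-up of the proteins. This split into members with and without leucine-rich repeats was made from general knowledge of the genes after their values had been seen, and it has no test. Of 15 members with leucine-rich repeats past the filter, 13 were lower in replicate 3 than in replicate 1 in both genotypes (12 after quantile normalization or median centring), and 2, AT1G69550 and AT4G16920, were higher. Of 6 members without the repeats, 0 were lower in both and 4 were higher (5 after quantile normalization or median centring), namely AT1G72920, AT1G72940, AT3G04210 and AT4G09420. Over all probe sets 47.6% were lower and 34.6% higher in both, and this order turned by quantile normalization (39.6% lower, 42.5% higher) and by median centring (35.6% lower, 47.4% higher). The median for members with the repeats was -1.12 for pad4 and -1.09 for pad4 est1b, and for those without them 0.68 and 0.70. Between genotypes the medians of both kinds were near 0, at 0.01 and -0.07.

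**Figure D4:**
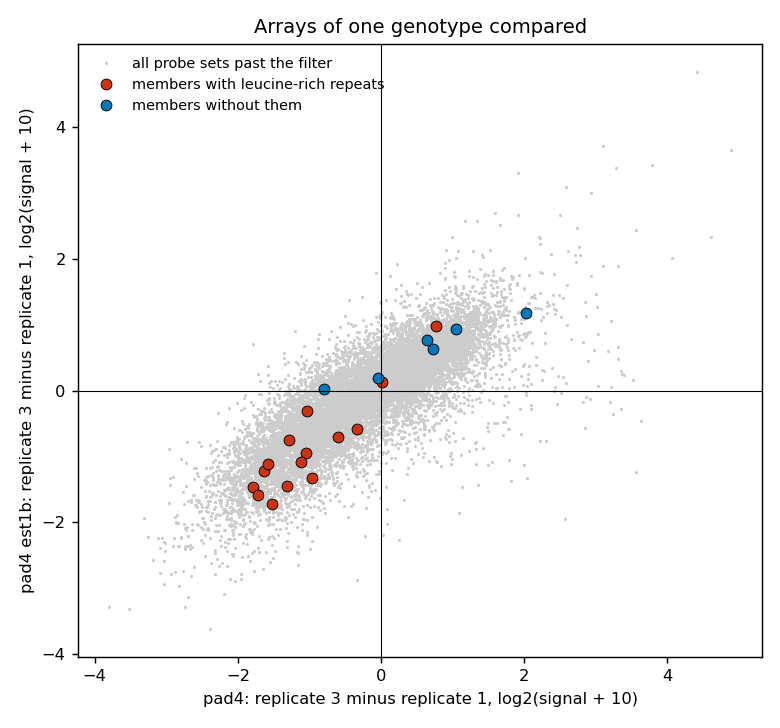
Replicate 3 minus replicate 1 on the log2(signal + 10) scale in pad4 (x axis) and in pad4 est1b (y axis) for all 12804 probe sets past the filter (grey), the 15 members with leucine-rich repeats (red) and the 6 without (blue). Of the red points 13 lie at the lower left, below 0 in both genotypes, and 0 of the blue points do.

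Within the same replicate number the members gave no common direction either. The median difference, double mutant minus pad4, was 0.07 for the arrays numbered 1, -0.19 for those numbered 2 and 0.20 for those numbered 3, with 12, 8 and 16 of the 21 members higher. Over all 12804 probe sets tested these medians were 0.00, -0.01 and 0.14, with 6313, 6303 and 7715 probe sets higher. The double mutant was higher at all 3 numbers in 6 members, where 19.9% of all probe sets were, and lower in 4, where 14.2% were. The 6 are AT3G04210, AT4G09420, AT4G16920, AT4G19530, AT4G36150 and AT5G22690, and the 4 are AT1G72920, AT1G72940, AT3G44630 and AT5G38850. Labels do not say what a shared number stands for.

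Few genes that act with or downstream of the receptors could be read, because the annotation used gives most of them no probe set of their own. It lists no gene for 8730 of 22810 probe sets, so the arrays may hold probe sets for others. Of 33 listed genes of TIR receptor signalling and salicylic acid defence, 4 have a probe set of their own, 2 of them past the filter, and limma called 0. SAG101, a partner of EDS1, had 45.8, 46.3 and 18.2 units on the pad4 arrays and 52.0, 43.2 and 28.9 on those of the double mutant. Its log2 difference was 0.18 ± 0.35 (SE), within the spread of either genotype. SGT1A, a cochaperone of NLR proteins, had 200.4, 159.8 and 38.6 units for pad4 against 200.1, 159.3 and 51.4 for pad4 est1b (0.11 ± 0.64, SE). Replicates 1 and 2 of the 2 genotypes were nearly equal in SGT1A, and the replicate 3 arrays were the lowest in both. AT3G48080, a close relative of EDS1, ran from 6.09 to 12.9 units over the 6 arrays, and AT5G66890, a relative of the NRG1 helpers, from 4.68 to 10.7, both under the filter.

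Coiled-coil NLR genes, the other large receptor class, were likewise dim. Of 48 listed loci 24 could be read and 5 passed the filter. The median log2 difference over the 24 was -0.08 and over the 48 TIR-type members 0.09, and no test sets the 2 classes against each other. Lower signal in replicate 3 than in replicate 1 was not confined to TIR-type receptors. In the main scaling 4 of 5 coiled-coil genes were lower in both genotypes, where 47.6% of all probe sets were. Their median was -0.54 for pad4 and -0.63 for pad4 est1b, and 0 were lower by 2-fold in both (11.7% of all probe sets). Both signalling genes past the filter were also lower, with medians of -1.55 and -1.22. Limma called 0 of the 5 genes and gave 2 with an unadjusted p under 0.05, where the share over all probe sets was 4.44%. These 2 went in opposite directions, AT1G59620 (CW9) at 0.96 ± 0.33 (SE) and AT5G47250 at -0.68 ± 0.30 (SE), with adjusted p of 0.94 and 1.00. AT5G47250 passed the filter only through pad4, with a mean of 28.7 units there and 14.3 in the double mutant.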

How the data were processed

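Total RNA from leaves was labelled with biotin (3' IVT Express) and read on ATH1 arrays, per the labels' protocols. The files hold the intensity of each probe set (signal) as deposited by the authors, in linear units; the submitters' processing notes list MAS5 and GCOS. Not given in the sources used here were their settings and versions, detection calls and the genome build. A platform annotation table named the genes: among 22810 probe sets, 13513 had 1 gene, 503 several, 8730 none listed, and 64 were controls. The TAIR10.1 gene table, which held 60 of 60 loci, served for names and gene order. Signals, plus an offset of 10 units (10% of the trimmed mean), were put on the log2 scale. Control probe sets and those with a mean under 20 units were left out, which kept 12804. A two-sided comparison of the genotypes used lmFit and eBayes of limma 3.58.1 under R 4.3.3, with no covariate and with Benjamini-Hochberg adjustment over all probe sets kept. The 3 arrays per group limit the precision, and the labels leave unsaid whether replicates are separate plants, so a p-value covers only the spread between these samples, which may be technical. The procedure was run on simulated data with independent arrays. Those lack the differences by replicate number and stage label of these arrays, so the simulation says nothing about them. Figures used Python 3.11.15 and matplotlib 3.10.9.

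The members and lists were chosen with earlier results of these data known. Named in the text are members with an unadjusted p under 0.05, those with groups that do not overlap, the 8 largest differences per direction past the filter, neighbours of these, members with a function under their own name, and up to 6 genes of signalling. Exceptions are the rest of the 21 tested members, the root, leaf and guard cell markers, and 2 coiled-coil genes, named after their values were seen. A planned split by protein length was not run, since no protein table was at hand, and no sequence is printed. Alternatives changed the offset, filter, scaling, covariates, probe set types, eBayes options and the arrays used.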

Additional observations from a re-analysis of the deposited data

How the results depend on the processing

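The limits are 3 arrays per group, 21 of 48 members bright enough to test, and standard errors that leave 2-fold changes inside most intervals. The causes of the shifts below were not tested. Under 19 alternatives limma called 0 members. Averaging the probe sets of a locus changed nothing, since each member has 1, and a split by protein length was not run. Of the 21 members tested, 6 kept their sign under all 19 alternatives, and 15 turned under at least 1. Not all alternatives could turn a sign. Changes of filter, probe set types or eBayes options and a block on the replicate numbers left each fitted difference at its main value. The stage covariate and the fit restricted by stage label gave equal differences, so they are the same check of sign. Of the 6, AT4G09420, AT4G16920 and AT4G36140 passed the filter only through the genotype in which they were higher. The size of the 6 moved widely: with single arrays left out it ran from -0.85 to -0.29 for AT1G72940, from -1.13 to -0.27 for AT3G44630, from 0.48 to 0.92 for AT4G09420, from 0.20 to 0.64 for AT4G16920, from -0.52 to -0.0773 for AT4G36140 and from -0.67 to -0.0024 for AT5G38850.

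The number of probe sets called, 5 in the main comparison, was 0 without an offset, without a filter, without probe set types prone to cross-hybridise, with a stage covariate and among samples labelled 5.10. It was 2 by quantile normalization, 1 by median centring, 36 with the control ratio in the model, 19 without both replicate 3 arrays and 0 to 9 with single arrays left out (9 without pad4 replicate 3, 1 without pad4 est1b replicate 1 and 0 without any of the other 4). Members at an unadjusted p under 0.05 numbered 0 in the main comparison, 1 without an offset (4.54% of all probe sets), with the stage covariate (1.53%), with the control ratio covariate (9.97%) and among samples labelled 5.10 (2.74%), and 0 to 2 with single arrays left out (2.16% to 7.09%). Of the 48 members 2 (4.17%) had no overlap in the main comparison, where 9.38% of all probe sets had none. The count was 1 by median centring (2.08% against 7.91%) and 11 without both replicate 3 arrays (22.9% against 33.3%). With single arrays left out it was 4 to 10 (8.33% to 20.8%, against 14.2% to 22.2% of all probe sets). Of these fits only that without pad4 replicate 1 gave members a larger share than all probe sets (20.8% against 18.6%). Fewer arrays leave less room for overlap. The median difference over the 48 members ran from -0.09 to 0.22, and over those past the filter from -0.30 to 0.23. From replicate 1 to replicate 3 the members' median in pad4 was -0.62 with an offset of 30%, -0.60 by quantile normalization and -0.58 by median centring, and in the double mutant -0.44 by quantile normalization.

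A replicate block on the shared numbers raised the calls by limma to 81 probe sets (0.633%), of which 70 were higher and 11 lower, and 0 were members. Under the block 6 members had an unadjusted p under 0.05, where 12.5% of all probe sets did: AT4G09420, AT4G16920 and AT5G22690 higher and AT1G72920, AT1G72940 and AT3G44630 lower, with adjusted p by limma from 0.15 to 0.38. Arrays that share a number had deviations from the group mean that correlated at 0.83 (number 1), 0.00 (number 2) and 0.68 (number 3). Of 6 arrays 4 correlated best with their own number. As number 2 showed no correlation and labels leave the numbers unexplained, the main comparison did not treat the numbers as pairing the arrays. Its standard errors and intervals therefore include the variation shared within numbers 1 and 3, and intervals under the block are not given here.

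The sign turned with a stage covariate and, at the same value, among samples labelled 5.10 for AT1G63750 (-0.42), AT1G69550 (0.29), AT1G72920 (0.37), AT4G12010 (-0.89), AT4G19530 (-0.56), AT4G36150 (-0.21), AT5G11250 (-0.0708), AT5G22690 (-0.19) and AT5G36930 (-0.16). AT4G12010 also turned with an offset of 30% (-0.0105), by quantile normalization (-0.0253) and median centring (-0.0604) and without both replicate 3 arrays (-0.075). With single arrays left out, the difference ran from -0.25 to 0.51 for AT1G63750, from -0.62 to 0.28 for AT1G63880, from -0.51 to 0.14 for AT1G69550, from -0.31 to 0.13 for AT1G72890, from -0.32 to 0.25 for AT1G72900, from -0.97 to 0.0426 for AT1G72920, from -0.74 to 0.0845 for AT2G14080, from -0.0181 to 0.53 for AT3G04210, from -0.33 to 0.46 for AT4G12010, from -0.28 to 0.24 for AT4G19510, from -0.059 to 0.80 for AT4G19530, from -0.0796 to 0.28 for AT5G11250 and from -0.0838 to 0.56 for AT5G36930.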
